A study of Mus musculus with 9 samples.

Results

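Transient receptor potential (TRP) channels are cation channels of the cell membrane, and 9 of their genes were examined in lumbar dorsal root ganglia: Trpm2, Trpm3, Trpm4 and Trpm7 of the melastatin subfamily, Trpc1, Trpc5 and Trpc6 of the canonical subfamily, and Trpv2 and Trpv4 of the vanilloid subfamily. They were chosen by gene symbol from the 38926 genes counted in each library and leave out the thermosensors Trpv1, Trpa1 and Trpm8. They are a part of the family, and 19 other TRP genes, the thermosensors included, are counted separately below. Male wild-type C57BL/6 mice aged 8 to 10 weeks had received vehicle, cisplatin or oxaliplatin in the paws, at 40 µg of drug in total, and the whole L3, L4 and L5 ganglia of the treated side were collected. Each group had 3 libraries, each made from RNA pooled over 4 animals, so p-values measure the spread between pools and not between animals. Both drugs are platinum compounds used against cancer that cause sensory neuropathy: cisplatin carries chloride and ammine ligands, and oxaliplatin an oxalate and a diaminocyclohexane ligand. The dose was matched by mass and not by the number of molecules, and the vehicle libraries serve as the control of both drugs.

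TRP channels open in response to lipids, heat, osmotic or mechanical stress, calcium or oxidation, and let sodium, calcium and, for some members, magnesium into the cell. Canonical channels are opened downstream of receptors that activate phospholipase C. Many melastatin and vanilloid channels also need the membrane lipid phosphatidylinositol bisphosphate. In sensory neurons TRP channels turn heat and chemical stimuli into depolarisation, and several of the genes examined are also expressed in glia, macrophages and blood vessels of the ganglion.

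The bases before the transcription start of the 4 members that changed against vehicle in at least 1 drug group are shown first, since Trpm3, Trpm7 and Trpc1 fell with both drugs and Trpc6 rose with oxaliplatin in the counts below. They are 250 bases from RefSeq on GRCm38.p6, 5′ to 3′ on the strand of the gene, and 8 of the 9 members were matched there. Capitals mark each match, searched on both strands, to motifs that were chosen after the sequences had been seen. The GC box was searched as GGGCGG, with its reverse complement. The E-box was searched as CACGTG, which reads the same on both strands. The TATA box was searched as TATAAA on either strand, and no match overlapped another. The CCAAT box was searched by the letters of its name on either strand.
Trpm3, first start, chr19:22138796-22139045, plus strand: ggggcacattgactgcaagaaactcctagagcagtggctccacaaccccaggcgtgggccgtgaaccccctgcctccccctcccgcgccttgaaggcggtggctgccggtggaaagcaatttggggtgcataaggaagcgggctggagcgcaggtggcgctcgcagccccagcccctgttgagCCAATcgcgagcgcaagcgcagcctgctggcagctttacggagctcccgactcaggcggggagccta
Trpm7, chr2:126876262-126876511, minus strand: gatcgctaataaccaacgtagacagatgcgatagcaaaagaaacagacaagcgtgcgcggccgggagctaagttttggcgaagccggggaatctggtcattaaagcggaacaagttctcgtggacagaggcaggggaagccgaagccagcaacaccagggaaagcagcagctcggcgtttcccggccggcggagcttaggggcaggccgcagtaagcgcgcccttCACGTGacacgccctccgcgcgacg
Trpc1, chr9:95750349-95750598, minus strand: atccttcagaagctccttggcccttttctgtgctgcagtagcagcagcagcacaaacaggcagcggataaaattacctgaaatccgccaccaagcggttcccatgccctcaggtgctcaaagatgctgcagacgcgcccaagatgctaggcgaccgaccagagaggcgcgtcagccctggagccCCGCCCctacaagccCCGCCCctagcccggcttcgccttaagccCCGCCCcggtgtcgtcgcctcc
Trpc6, chr9:8543892-8544141, plus strand: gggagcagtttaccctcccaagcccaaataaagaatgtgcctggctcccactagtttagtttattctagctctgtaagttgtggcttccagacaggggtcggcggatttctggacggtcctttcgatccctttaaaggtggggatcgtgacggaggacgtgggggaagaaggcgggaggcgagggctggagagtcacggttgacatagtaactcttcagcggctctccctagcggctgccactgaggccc
The 3 genes that fell, Trpm3, Trpm7 and Trpc1, shared none of these motifs with each other. Trpc1 held 3 GC boxes, Trpm7 held 1 E-box, the first start of Trpm3 held 1 CCAAT box, and Trpc6 held no match. Among 32851 RefSeq windows of the same length, 32.7% held a GC box, 6.02% an E-box, 12.4% a TATA box and 33.8% a CCAAT box. The GC content of the windows was 66.4% for the first start of Trpm3, 62.8% for Trpc1, 60.4% for Trpm7 and 56.4% for Trpc6. The median over all RefSeq windows was 52.4%. The window of the second start of Trpm3, not shown, had 59.2% and held no match.

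The libraries held 22819185 to 38808509 reads assigned to genes. Levels are given as CPM, the reads of a gene relative to its library's total, adjusted with TMM factors that set the bulk of genes equal between libraries. The floor of 3 counts lay between 0.0711 and 0.188 CPM. Vehicle library 2 stood apart from the rest: 51.0% of its recorded reads aligned to several places, against 25.9 to 33.9% elsewhere, and its TMM factor was 0.70 against 0.96 to 1.10. Of uniquely aligned reads, 26.2 to 47.7% were assigned to no feature in vehicle libraries and 16.6 to 19.1% in drug libraries, so this share moves with the groups. The feature counted is not given, so reads from introns and from between genes cannot be told apart in this share. Neuronal markers identified the tissue, with a summed level of 16750 to 19500 CPM over 12 genes in all libraries. All 9 members passed the filter on low counts, among 17348 genes tested.

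In vehicle ganglia the members spanned a 51.0-fold range of level per exon length, given as RPKM, the CPM per kilobase of annotated exon. Trpv2, a channel of larger sensory neurons and macrophages that responds to strong heat, stood at 17.2 ± 0.87 RPKM (SD, n = 3). Trpm7, a channel fused to a kinase that carries magnesium and zinc, followed at 9.85 ± 0.49, and Trpc6, opened by diacylglycerol, at 7.11 ± 0.59. Trpc1, a subunit that joins other canonical channels, stood at 4.92 ± 0.36. Trpm3, the heat and neurosteroid receptor of nociceptors, at 3.24 ± 0.29, and Trpm2, opened by ADP-ribose in oxidative stress, at 2.94 ± 0.24, overlapped between libraries. Trpm4, which calcium opens and which itself carries sodium and potassium, stood at 2.30 ± 0.14. Trpv4, an osmotic and mechanical sensor also found in glia and endothelium, at 0.51 ± 0.10, and Trpc5, a cold-sensitive canonical channel, at 0.34 ± 0.08, were the lowest. For comparison, Trpv1 stood at 36.6 RPKM, Trpa1 at 20.5 and Trpm8 at 12.7.

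**Figure D1:**
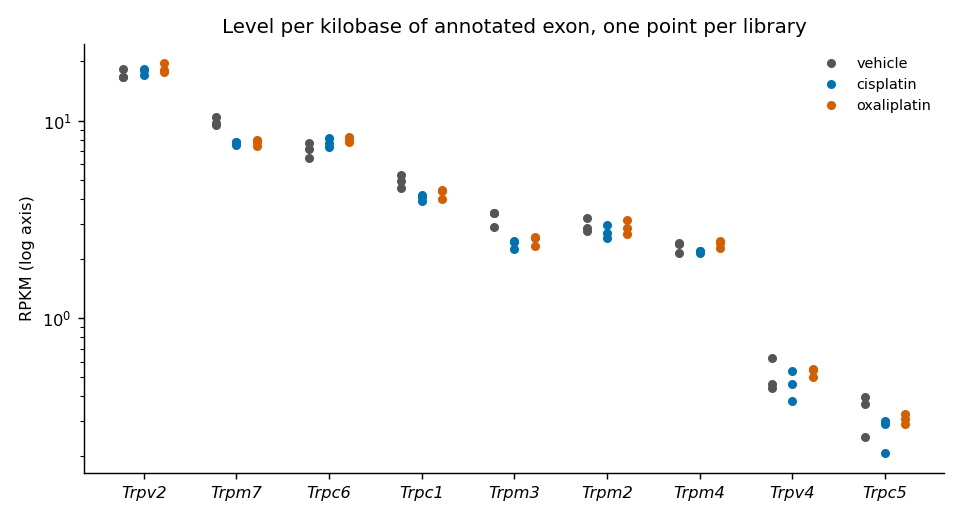
Level of each member per exon length (RPKM, log axis) in the 3 groups; each point is 1 library. Trpv2 leads in all groups, Trpv4 and Trpc5 lie lowest, and Trpm7 overlaps Trpc6 in both drug groups but not in vehicle.

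The order changed in the drug groups at neighbours with close levels. After cisplatin Trpc6 (7.71 RPKM) and Trpm7 (7.70 RPKM) overlapped, and Trpm2 (2.73 RPKM) stood above Trpm3 (2.37 RPKM). After oxaliplatin Trpc6 (8.07 RPKM) and Trpm7 (7.74 RPKM) overlapped as well, and Trpm3 (2.47 RPKM) overlapped Trpm4 (2.38 RPKM). The order in the middle depends on the gene model: with the longest transcript in place of all exons, Trpm4 (5.78 RPKM) stood above Trpm2 (5.03 RPKM) in vehicle ganglia, with overlapping libraries.

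Against vehicle, 3 members fell after cisplatin (Trpm3, Trpm7 and Trpc1) and none rose. After oxaliplatin the same 3 genes fell and Trpc6 rose. The falls were modest, 27.2% for Trpm3, 21.8% for Trpm7 and 17.5% for Trpc1 after cisplatin. Genes were called at an adjusted p under 0.05 (edgeR's quasi-likelihood test, Benjamini-Hochberg over all genes), and the median change of the 9 members was -0.11 (log2) after cisplatin and -0.03 after oxaliplatin, beside 0.00 for all genes in both. Over all genes 22.9% were called lower and 15.8% higher after cisplatin, and 24.1% lower and 17.5% higher after oxaliplatin. With 9 genes, the members' counts lie near those shares. The falls depend on how the libraries are scaled. All 3 lower calls held for both drugs with median-ratio size factors. Library totals without vehicle library 2, a fit chosen after seeing the data, called 3 members lower for cisplatin and 2 for oxaliplatin. No member was called lower with the totals of all 9 libraries, nor after the trend with exon length and GC content was removed. The same held when that trend was removed without vehicle library 2, a fit also chosen after seeing the data.

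**Figure D2:**
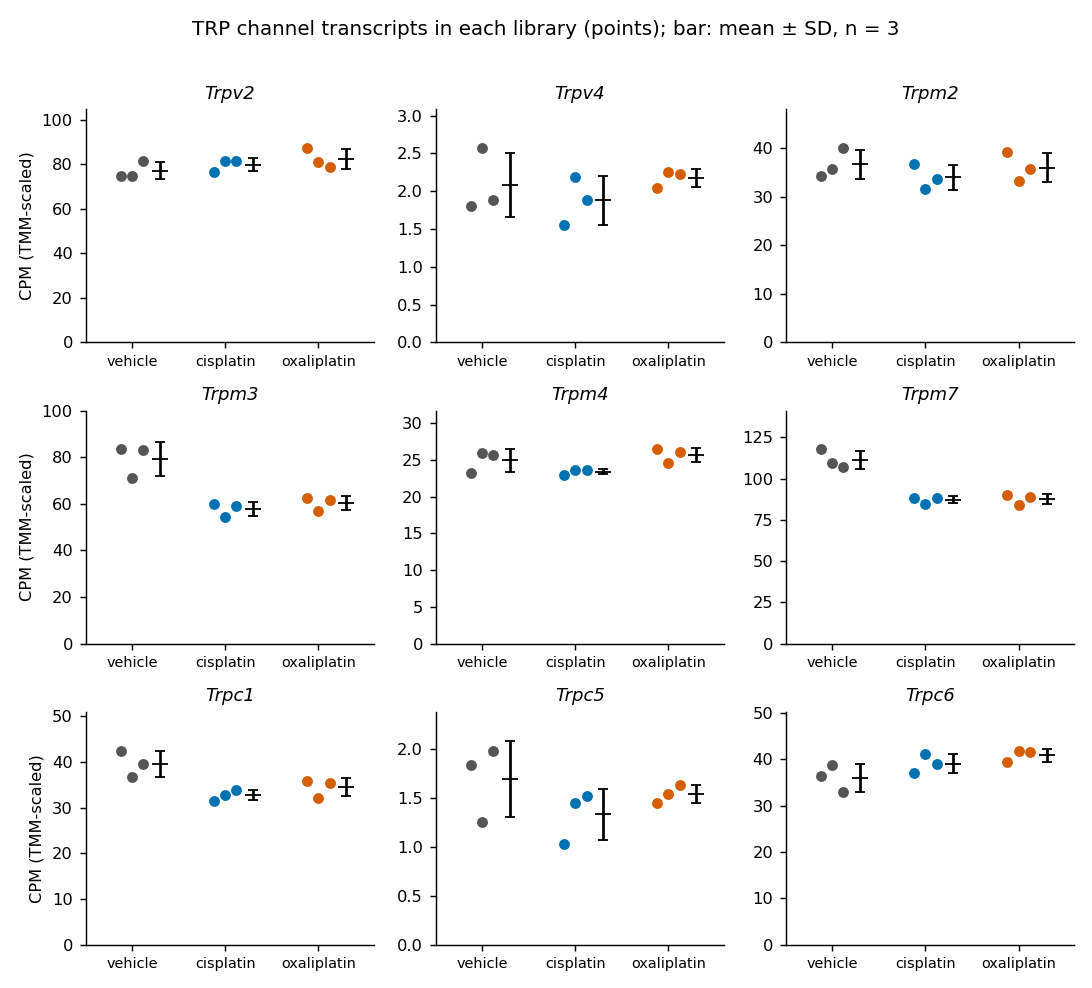
Level of each member in every library (CPM), with 1 panel per gene; points are libraries and bars the mean ± SD (n = 3). For Trpm3, Trpm7 and Trpc1 all 6 drug libraries lie below the 3 vehicle libraries, and for Trpc6 the oxaliplatin libraries lie above them.

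Trpm3 stood at 83.3, 71.0 and 83.3 CPM in the vehicle libraries, at 60.1, 54.3 and 59.2 CPM after cisplatin, and at 62.6, 56.8 and 61.8 CPM after oxaliplatin. Every drug library lay below every vehicle library, and vehicle library 2 was the lowest of its group. Of all genes, 26.7% lay lower without overlap after cisplatin and 27.4% after oxaliplatin. The change was -0.46 (log2; 95% interval -0.61 to -0.31; adjusted p 0.000384, edgeR) after cisplatin and -0.40 (-0.55 to -0.24; adjusted p 0.000879) after oxaliplatin. Trpm3 was called lower in all 9 fits that left out 1 library, at -0.51 to -0.40 and -0.45 to -0.33. The gene spans chr19:22139046-22995410 on GRCm38, and its introns hold Mir204, which had at most 2 reads in any library and so was below the floor. Such counts from total RNA libraries are not a measure of the mature microRNA. The exons of Trpm3 share 351 bp with the antisense gene C330002G04Rik, which had at most 6 reads.

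Trpm7 (chr2:126791565-126876230) stood at 118, 109.7 and 107 CPM in vehicle libraries. It stood at 88.4, 84.8 and 88.2 CPM after cisplatin and at 89.9, 84.2 and 88.6 CPM after oxaliplatin. The drug libraries lay close together and apart from vehicle, with a gap wider than the spread within any group. The change was -0.35 (-0.46 to -0.24) for both drugs, with adjusted p 0.000257 and 0.000253 (edgeR). It was called lower in all 9 fits that left out 1 library, at -0.39 to -0.29 and -0.38 to -0.28.

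The remaining melastatin members, Trpm2 and Trpm4, were not called against vehicle with TMM scaling. Both were called higher after oxaliplatin under another scaling, given below. Trpm2 (chr10:77907722-77970563) stood at 34.3, 35.6 and 40.0 CPM in vehicle, 36.7, 31.6 and 33.7 CPM after cisplatin and 39.1, 33.2 and 35.6 CPM after oxaliplatin. These ranges overlap, and the changes were -0.11 (-0.29 to 0.07; adjusted p 0.310, edgeR) and -0.03 (adjusted p 0.800). Trpm4 (chr7:45302632-45333780) stood at 23.2, 26.0 and 25.6 CPM in vehicle, 23.0, 23.6 and 23.6 CPM after cisplatin and 26.4, 24.6 and 26.1 CPM after oxaliplatin. Its changes were -0.09 (-0.23 to 0.05; adjusted p 0.280) and 0.05 (adjusted p 0.575).

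Trpc1 (chr9:95705082-95750375) stood at 42.4, 36.6 and 39.5 CPM in vehicle libraries, at 31.5, 32.8 and 33.8 CPM after cisplatin and at 35.7, 32.2 and 35.4 CPM after oxaliplatin. No drug library reached the lowest vehicle library. The change was -0.28 (-0.42 to -0.13; adjusted p 0.00631, edgeR) after cisplatin and -0.20 (-0.35 to -0.06; adjusted p 0.0269) after oxaliplatin. Without vehicle library 1 the change after cisplatin was -0.20 (adjusted p 0.0541), and that after oxaliplatin was -0.12 (adjusted p 0.197), more than 1.5 times smaller. The call after oxaliplatin held in 4 of 9 fits that left out 1 library. It was lost at changes closer to the full value without vehicle library 3 (-0.21; adjusted p 0.0551), oxaliplatin library 2 (-0.16; 0.114), oxaliplatin library 3 (-0.22; 0.0505) or cisplatin library 3 (-0.18; 0.0546), and without the filter on low counts (-0.15; 0.113).

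Trpc6 (chr9:8544142-8680741) moved the other way. It stood at 36.4, 38.8 and 32.9 CPM in vehicle, at 37.1, 41.2 and 38.9 CPM after cisplatin and at 39.3, 41.9 and 41.5 CPM after oxaliplatin. Vehicle and cisplatin libraries overlapped, whereas every oxaliplatin library lay above vehicle, as for 23.1% of all genes. The change was 0.12 (-0.02 to 0.27; adjusted p 0.169, edgeR) after cisplatin and 0.19 (0.04 to 0.34; adjusted p 0.0406) after oxaliplatin. Without vehicle library 2 it was called after cisplatin as well, at 0.19 (adjusted p 0.0433). After oxaliplatin the change was 0.12 without vehicle library 3 (adjusted p 0.166), more than 1.5 times smaller. The call was also lost, at changes closer to the full value, without vehicle library 1 (0.22; adjusted p 0.0520), oxaliplatin library 2 (0.17; 0.115) or oxaliplatin library 3 (0.18; 0.110), and with the vehicle and oxaliplatin groups fitted alone (0.19; 0.0573).

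Trpc5 (chrX:144381671-144688180) and Trpv4 (chr5:114622152-114658421) were low, with 20 to 65 and 41 to 95 reads per library. Trpc5 stood at 1.84, 1.25 and 1.98 CPM in vehicle, 1.03, 1.45 and 1.52 CPM after cisplatin and 1.45, 1.54 and 1.63 CPM after oxaliplatin, with changes of -0.38 (-0.82 to 0.07; adjusted p 0.162, edgeR) and -0.18 (adjusted p 0.506). Trpv4 stood at 1.80, 2.57 and 1.89 CPM in vehicle, 1.55, 2.19 and 1.89 CPM after cisplatin and 2.04, 2.25 and 2.23 CPM after oxaliplatin, with changes of -0.11 (-0.50 to 0.28; adjusted p 0.661) and 0.10 (adjusted p 0.690). The groups overlapped for both genes. Trpv2 (chr11:62574486-62600515), the most abundant member per length, stood at 74.8, 74.9 and 81.7 CPM in vehicle, 76.5, 81.6 and 81.3 CPM after cisplatin and 87.3, 80.9 and 79.0 CPM after oxaliplatin. Its changes were 0.05 (-0.07 to 0.17; adjusted p 0.525) and 0.09 (-0.03 to 0.21; adjusted p 0.197).

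**Figure D3:**
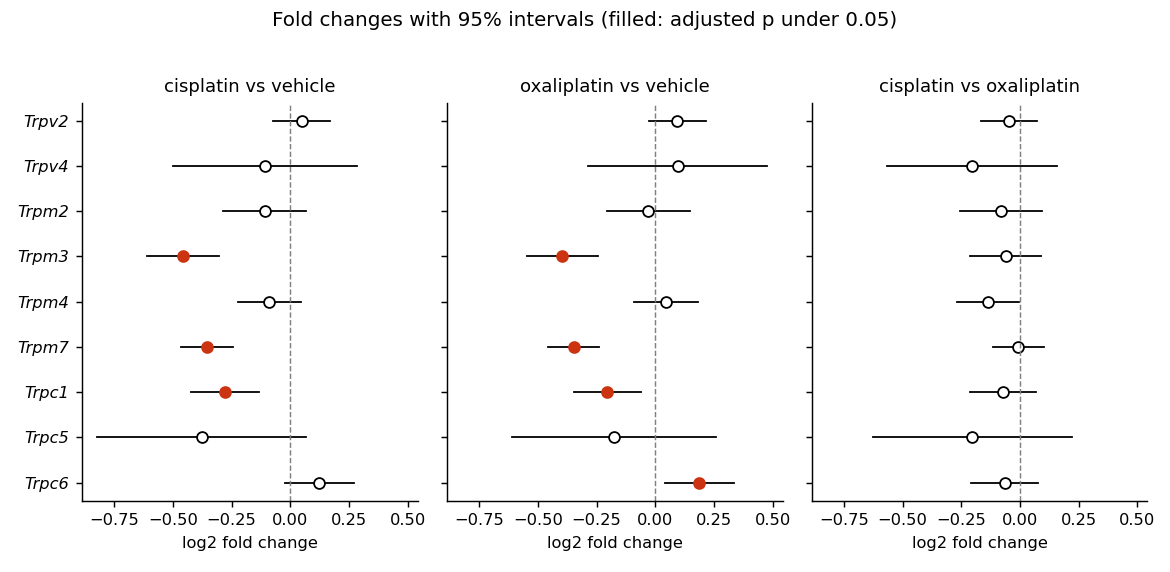
Log2 fold change of each member against vehicle and between the drugs, with 95% intervals from the edgeR fit; filled points have an adjusted p under 0.05. The intervals of Trpm3, Trpm7 and Trpc1 lie below 0 for both drugs, and that of Trpc6 above 0 for oxaliplatin.

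Among the members, the 3 that fell share a transcript composition. They have the lowest GC content of the 9, taken over the longest transcript (Trpm7 40.1%, Trpc1 45.2%, Trpm3 45.6%), and exons of 8030 bp or more. Trpm3, with 24437 bp, lies at the 99.7th percentile of all genes for length, and Trpm7 lies at the 6.29th percentile for GC content. Over the 16380 genes with an annotation, the change against vehicle fell with exon length (Spearman's rho -0.41 for both drugs) and rose with GC content (rho 0.22 and 0.27); genes are not independent replicates. With TMM scaling Trpm2 (12459 bp, 53.9% GC) and Trpm4 (10826 bp, 56.8% GC) were not called. Trpc6 (5066 bp, 46.2% GC), whose GC content is close to that of Trpm3, rose after oxaliplatin. The part of transcript length, GC content and the share of reads assigned to no feature in these falls was not tested.

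**Figure D4:**
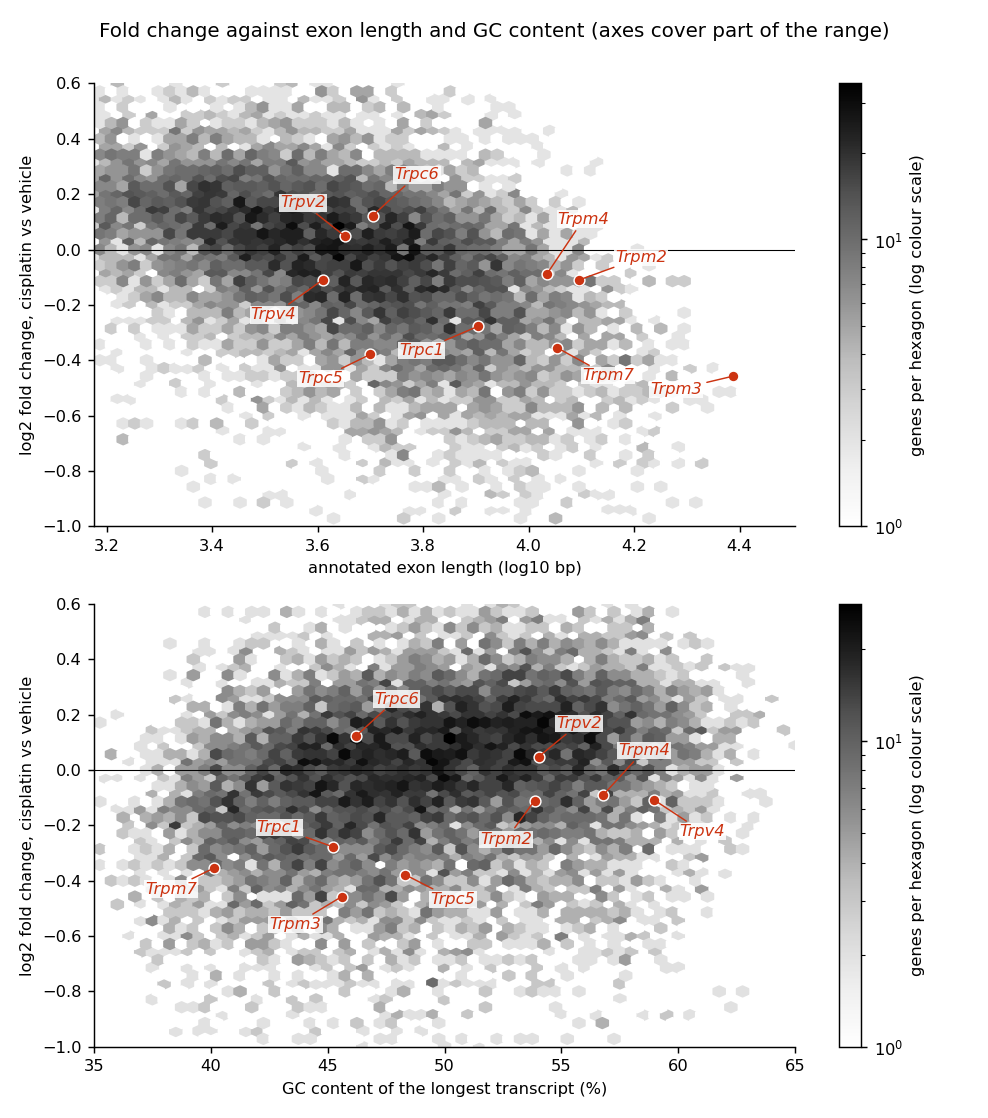
Log2 fold change after cisplatin against exon length (upper panel, log10 bp) and against GC content of the longest transcript (lower panel, %); grey shading gives the number of genes within the axes, which cover part of the range, and red points the members. Trpm3, Trpm7 and Trpc1 lie at low GC content and at 8030 bp or more.

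With the trend of each library on length and GC content removed, no member was called lower for either drug, beside 17.3% of all genes for cisplatin and 17.7% for oxaliplatin. After cisplatin Trpm3 then stood at 0.15 (adjusted p 0.0547, edgeR), Trpm7 at 0.03 (0.634) and Trpc1 at -0.08 (0.259). After oxaliplatin Trpm3 was called higher at 0.18 (adjusted p 0.0217), Trpm7 stood at 0.06 (0.219) and Trpc1 at -0.0040 (0.962). Few genes are as long as Trpm3, so its corrected value rests on the edge of that trend. Scaling to library totals alone moved the median of all genes to 0.29 and 0.30, and called 5.29% and 5.74% of them lower and 34.5% and 36.9% higher. Trpm3 then stood at -0.17 (adjusted p 0.348) and -0.10 (0.596), Trpm7 at -0.06 (0.756) and -0.05 (0.826), and Trpc1 at 0.01 (0.970) and 0.09 (0.629). Relative to that median all 3 still lay lower. Without vehicle library 2, library totals called Trpm3 lower for cisplatin (-0.37) and oxaliplatin (-0.30), Trpm7 too (-0.21 and -0.19) and Trpc1 for cisplatin (-0.17; adjusted p 0.0420), beside 14.5% and 15% of all genes. Trpc6 was called higher for both drugs under each of these other scalings: 0.19 (adjusted p 0.0415) and 0.26 with the trend removed, where 17% and 17.5% of all genes were called higher, and 0.42 (adjusted p 0.0168) and 0.50 with library totals. After oxaliplatin, Trpm4 was also called higher with the trend removed (0.25; adjusted p 0.00944) and with library totals (0.35; 0.0445), Trpm2 with the trend removed (0.20; 0.0434) and Trpv2 with library totals (0.39; 0.0253).

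**Figure D5:**
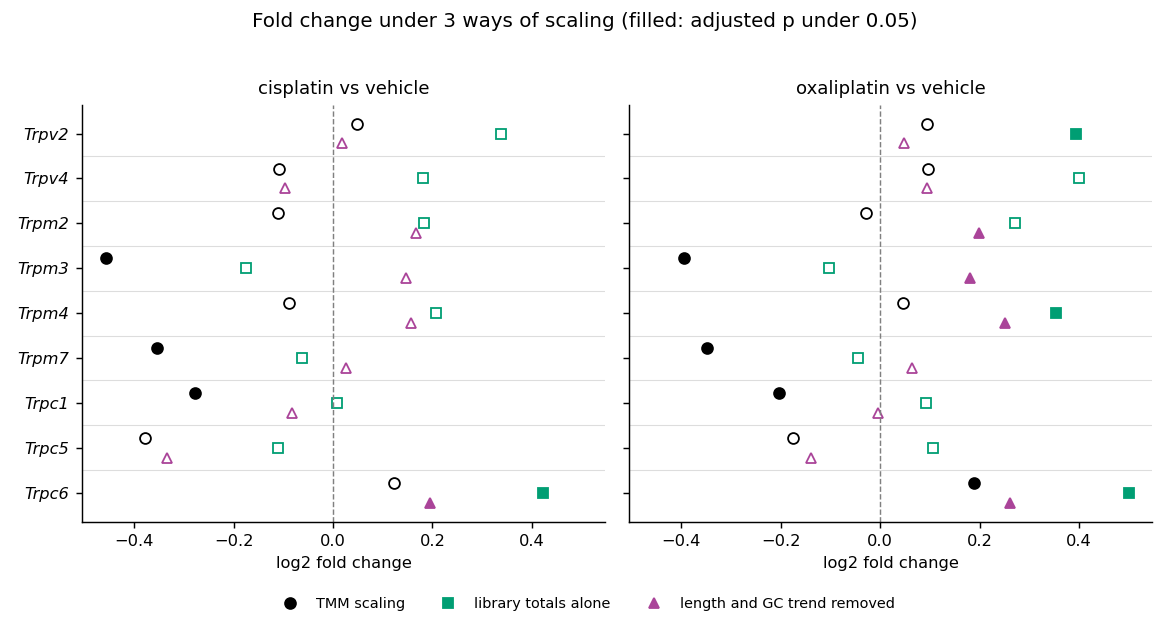
Log2 fold change of the members against vehicle under the scalings compared: TMM (circles), library totals alone (squares) and the trend with length and GC content removed (triangles); filled symbols have an adjusted p under 0.05. Trpm2, Trpm3 and Trpm7 change sign for both drugs when the trend is removed, as does Trpm4 for cisplatin, while Trpc6 and Trpv2 stay above 0 throughout.

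Between cisplatin and oxaliplatin no member was called, beside 0.0115% of all genes (2 genes). All 9 estimates were below 0, that is, lower after cisplatin, as were 51.5% of all genes. The narrowest interval was that of Trpm7, -0.01 (-0.12 to 0.10), and the widest that of Trpc5, -0.20 (-0.63 to 0.22). For Trpm3 the difference was -0.06 (-0.21 to 0.09), for Trpc1 -0.07 (-0.22 to 0.07) and for Trpc6 -0.07 (-0.21 to 0.08). Trpm4 was the only member whose drug groups did not overlap, at 23.0 to 23.6 CPM after cisplatin and 24.6 to 26.4 CPM after oxaliplatin. Its difference was -0.14 (unadjusted p 0.0449, adjusted p 0.767, edgeR), and 14.1% of all genes had groups that did not overlap. An unadjusted p under 0.05 was reached by 1 member in edgeR, beside 6.4% of all genes, by 0 in DESeq2 and by 1 in limma-voom. Adjusted p for the 9 members lay between 0.767 and 0.990, which does not show that the drugs act alike.

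Of 19 other TRP genes 14 were tested. After cisplatin Trpm8, the cold and menthol receptor, fell by 0.93 on the log2 scale (adjusted p 9.18e-05, edgeR). With TMM scaling no gene of this list rose after cisplatin. After oxaliplatin Trpm8 fell by 0.84 (adjusted p 0.000127), and Trpm5 rose from 0.17 to 0.40 CPM, near the floor (adjusted p 0.0385). Trpv1, the capsaicin receptor, and Trpa1, the irritant receptor, were not called: Trpv1 stood at -0.05 and -0.07, Trpa1 at 0.10 and 0.06. With library totals 3 and 4 of the 14 were called higher, beside 34.5% and 36.9% of all genes. With the trend removed 1 and 2 were higher, beside 17% and 17.5%. The falls of Trpm8 were called under both of these scalings.

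Genes that feed or regulate these channels were counted by list, with cisplatin first. Over all genes, 22.9% and 24.1% were called lower and 15.8% and 17.5% higher. With library totals these shares were 5.29% and 5.74% lower and 34.5% and 36.9% higher. With the trend removed they were 17.3% and 17.7% lower and 17% and 17.5% higher. In the list of phospholipase C and Gq signalling, which opens canonical channels, 12 of 25 genes fell and 4 rose after cisplatin, and 8 fell and 1 rose after oxaliplatin (median -0.12 in both). Plcb4, a phospholipase C, fell (-0.54 and -0.45). With library totals 0 of the 25 fell and 6 or 5 rose, and with the trend removed 3 fell and 4 rose in each. In the list of phosphoinositide supply, 6 and 7 of 12 genes fell and none rose (median -0.20 in both). With library totals 2 and 1 fell and 0 and 1 rose (median 0.08 and 0.09), and with the trend removed 3 and 4 fell. Synj1, a phosphatase that removes phosphates from this lipid, went from 277 ± 28.1 CPM to 117 ± 17.8 and 119 ± 19.5 CPM, a change of -1.25 and -1.21 (adjusted p 3.96e-05 and 2.99e-05, edgeR). Its calls held with the trend removed (-1.07 and -1.05) and with library totals (-0.96 and -0.92).

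Store-operated calcium entry, in which Trpc1 has been placed, had 4 genes higher and 4 lower of 12 after cisplatin and 6 higher and 3 lower after oxaliplatin. Library totals gave 7 higher and 0 lower for each drug, and the trend removed 5 and 1. Homer1, a scaffold that binds canonical channels, fell (-0.34 and -0.47), and Itpr2, an inositol trisphosphate receptor, rose (0.42 and 0.43). The Homer1 calls were lost with the trend removed (0.13 and 0.09) and with library totals (-0.05 and -0.17). Of 11 genes of ADP-ribose turnover, which sets the ligand of Trpm2, 1 rose and 2 fell after cisplatin, and 2 rose and 2 fell after oxaliplatin. Library totals gave 6 higher and 0 lower for each drug, and the trend removed 4 and 1 for cisplatin and 2 and 1 for oxaliplatin. Nudt9, an ADP-ribose hydrolase, rose by 0.30 and 0.26, and the deacetylase Sirt1 fell (-0.29 and -0.31). Of 13 magnesium transport genes, the other carriers of the ion that passes Trpm7, 6 fell and 1 rose after cisplatin and 5 fell and 1 rose after oxaliplatin. With library totals 1 fell with each drug and 4 and 3 rose, and with the trend removed 4 and 2 fell and 3 rose with each. Cnnm1 fell (-0.96 and -1.01), and Slc41a1, a magnesium transporter, rose by 0.48 after oxaliplatin.

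Among 17 binding and trafficking partners, 4 rose and 3 fell after cisplatin, and 3 rose and 2 fell after oxaliplatin. Library totals gave 7 higher and 0 lower for each drug, and the trend removed 4 and 2. Cav1, the caveolae protein, rose by 0.47 after cisplatin, and Snapin, a vesicle protein, by 0.21 and 0.23. Gi-coupled receptors and G protein subunits are of interest because G beta gamma inhibits TRPM3. Of 21 such genes 8 fell and 4 rose after cisplatin, and 7 fell and 3 rose after oxaliplatin. The balance turned with library totals, as it did over all genes, to 8 higher and 1 lower, and 9 higher and 2 lower. The trend removed gave 5 higher and 8 lower, and 3 higher and 7 lower. Gnao1, a Gi/o alpha subunit, fell (-0.65 and -0.80), and Oprm1, the µ-opioid receptor, by 0.77 after cisplatin. With library totals the calls of Plcb4, Sirt1 and, after cisplatin, Gnao1 were lost too (adjusted p 0.160 and 0.422, 0.986 and 0.967, and 0.0596), and with the trend removed those of Snapin after cisplatin (0.0762) and of Nudt9 after oxaliplatin (0.0539). In none of these lists was a gene called between cisplatin and oxaliplatin.

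Markers of other cells moved between the same groups. The shares called over all genes are those given with the gene lists above. In bulk tissue, fewer cells of a type and less RNA per cell cannot be told apart. Markers of large-diameter neurons had a summed level of 1294 to 1437 CPM in vehicle, 1005 to 1098 CPM after cisplatin and 1053 to 1152 CPM after oxaliplatin, with 7 and 6 of 11 called lower. Macrophage markers went from 148.8 to 199.1 CPM in vehicle to 229.9 to 306.0 and 225.6 to 269.1 CPM, with 11 and 9 of 12 called higher. Endothelial markers stood at 128.5 to 154.7, 179.7 to 223.5 and 189.0 to 204.7 CPM in the same order, with 8 and 9 of 10 higher, and mural cell markers at 370.6 to 385.1, 383.6 to 421.0 and 400.4 to 409.5 CPM, with 5 and 6 of 10 higher. Neuronal markers overlapped between vehicle (18360 to 19500 CPM) and drug libraries (16750 to 19110 and 17570 to 18430 CPM), with 4 of 12 lower for each drug. Markers of neutrophils (12 and 11 of 12), erythroid cells (7 and 6 of 7), myelinating Schwann cells (10 and 5 of 10) and fibroblasts and sheath (7 and 6 of 10) were also called higher. Satellite glia markers stood at 3322 to 3703 CPM in vehicle, 3813 to 4172 CPM after cisplatin and 4080 to 4322 CPM after oxaliplatin, while 2 of 10 rose and 2 fell with each drug. Peptidergic nociceptor markers stood at 4214 to 4384, 3843 to 3976 and 3930 to 4223 CPM, with 3 of 10 higher and 3 lower after cisplatin and 2 higher and 3 lower after oxaliplatin. Of 10 skeletal muscle markers 0 were called. Some of these counts turned with library totals alone: of neuronal markers 0 were lower and 1 and 2 higher, of peptidergic markers 0 were lower and 5 and 3 higher, and of muscle markers 8 were higher with each drug and 0 and 2 lower. Of the 11 large-diameter markers 4 and 3 were lower, and 0 and 1 were higher. No marker of these lists was at 0 in all libraries, and their part in the changes of the members was not tested.

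Over the 9 libraries, the genes most like each member in log2 CPM were found by Pearson's r, a description in which the group differences and shared scaling enter. For Trpm7 these were Il1rapl1 (0.998) and Cd47 (0.995), for Trpm3 Ccdc66 (0.989) and Igf1r (0.987), and for Trpc1 Zfp319 (0.991) and Pdk3 (0.990). Trpc6 was most like Hagh (0.978) and Lpxn (0.963), and Trpv2 most like Actr8 (0.951) and Kctd20 (0.950). The closest genes of Trpm4 were Hpcal1 (0.959) and Shkbp1 (0.891), of Trpc5 Gng4 (0.951) and Alpk1 (0.936), of Trpv4 Aldh16a1 (0.938) and Stk30 (0.934), and of Trpm2 Gpr123 (0.911) and Top3b (0.911). No member was among the closest genes of another.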

How the data were processed

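The authors deposited 1 file of raw counts per gene symbol for each of the 9 stranded total RNA libraries (single-end reads of 75 nucleotides), with no normalization. The submitters' processing notes name STAR, SAMtools and HTSeq and the build mm10 (GRCm38). Which annotation, versions and strand setting were used is not given in the sources used here. Reads of antisense or overlapping genes can therefore not be told apart. The 5 classes of reads assigned to no gene, 42.8 to 74.5% of recorded reads, were left out. Positions, exon lengths and GC content come from GENCODE M21.

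All libraries were fitted together in edgeR 4.0.16 (R 4.3.3, limma 3.58.1), with 1 term per group, TMM, filterByExpr and the two-sided quasi-likelihood test. Benjamini-Hochberg adjustment ran over all 17348 genes tested, and an adjusted p under 0.05 was called. DESeq2 1.42.0, limma-voom, other scalings and filters, and fits without single libraries were alternatives; a trend on length and GC content was fitted per library with mgcv 1.9.3. Same-numbered libraries did not deviate together, so the numbers were not used as pairs. From each list at most the 2 genes of smallest p per drug were named, and for each member the 2 most alike genes with a mean of at least 1 CPM. A list gene named for 1 drug only can have been called for the other drug too. The floor of 3 counts covers counting error only. The 9 members and the lists were chosen with earlier results of these data known. A result for 1 other gene of the TRP family is not reported here.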

Additional observations from a re-analysis of the deposited data

How the results depend on the processing

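The lower calls of Trpm3 and Trpm7 against vehicle held with median-ratio size factors, in DESeq2, limma-voom, without the filter and in every fit that left out 1 library, but were lost with library totals of all 9 libraries (direction kept) and with the trend with length and GC content removed (direction turned). In the counts of called members, cisplatin gave 0 higher and 3 lower; library totals gave 1 and 0, the trend removed 1 and 0 (also with the replicate block), and without vehicle library 2 the trend removed gave 2 and 0 and library totals 2 and 3. Oxaliplatin gave 1 higher and 3 lower; library totals gave 3 and 0, the 2 groups alone 0 higher, the trend removed 4 and 0 (3 and 0 with the replicate block), and without vehicle library 2 the trend removed 4 and 0 and library totals 3 and 2. Leaving out 1 library gave 0 to 1 higher for each drug. Without vehicle library 2, the trend removed called 3433 of 17711 genes higher and 2804 lower for cisplatin, and 3609 and 2885 for oxaliplatin. Library totals without it called 6049 and 2574, and 6293 and 2658. With all 9 libraries, TMM called 2744 of 17348 genes higher and 3971 lower for cisplatin, and 3043 and 4178 for oxaliplatin. Library totals then gave 5987 and 917, and 6408 and 996. Between the drugs 2 genes were called, against 68 with library totals, 16 without the filter, 15 in DESeq2, 1 with at least 1 CPM in 3 libraries, 1 in limma-voom, and 0 with the replicate block (with or without the trend), the 2 groups alone, or library totals without vehicle library 2; leaving out 1 library gave 0 to 2. The replicate block changed no member's call in the TMM fit. Same-numbered libraries correlated at -0.141 to 0.105, and 2 of 9 pairs exceeded 0.1.

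Signs that turned after cisplatin were as follows. Library totals gave Trpv4 0.18, Trpm2 0.18, Trpm4 0.21 and Trpc1 0.0085, and without vehicle library 2 Trpv4 0.19, Trpm2 0.030 and Trpm4 0.096. The trend removed gave Trpm2 0.17, Trpm3 0.15, Trpm4 0.16 and Trpm7 0.027, the same with the replicate block except Trpm4 at 0.15, and without vehicle library 2 Trpm2 0.20, Trpm3 0.16, Trpm4 0.23, Trpm7 0.057 and Trpv4 0.059. Leaving out 1 library put Trpv4 between -0.24 and 0.049. After oxaliplatin, library totals gave Trpm2 0.27, Trpc1 0.093 and Trpc5 0.11, and without vehicle library 2 Trpm2 0.12. The trend removed gave Trpm2 0.20, Trpm3 0.18 and Trpm7 0.064, the same with the replicate block, and without vehicle library 2 Trpm2 0.24, Trpm3 0.20 and Trpm7 0.095. Trpm2 was 0.022 without the filter and between -0.067 and 0.042 when 1 library was left out. Between the drugs, leaving out 1 library put Trpm7 between -0.034 and 0.012. The cause was not tested for any of these. Depth limits Trpc5 and Trpv4 most. Both alternatives that combine leaving out vehicle library 2 with another scaling were chosen after seeing the data.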
